A study of Caenorhabditis elegans with 26 samples.

Results

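Embryos of the Caenorhabditis elegans strain TY2222 with 1 X chromosome (XO) were profiled on 8 of the 26 Affymetrix expression arrays of a study of dosage compensation. The 8 arrays fall into sets by the date in their titles, with 5 arrays of the later date and 3 arrays of the earlier date, and the sets were compared for the genes and functions that varied between them. The labels do not say what the date marks, so the sets are called later-dated and earlier-dated here. All 8 arrays carry the mutations sdc-2(y74), xol-1(y9), unc-9(e101) and her-1(hv1y101), came from worms grown on egg plates, and were made from embryos of bleached gravid adults. Wild-type XX embryos from egg plates, with 3 later-dated and 3 earlier-dated arrays, served as the comparison. The earlier-dated sets of both genotypes share a title date, and the later-dated sets do not. The labels give no stage for the embryos. Replicates are described as biological in the series text, but no label speaks of separate cultures, so p-values measure only the spread between these arrays.

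An embryo harvest of this kind holds embryos of mixed ages, because gravid adults carry eggs of several ages. The range of ages in these samples is not given. Transcripts loaded by the mother dominate at first, cell division and histone production fill the proliferative phase, and muscle, gut, nerve and skin genes come on as cells differentiate. In XX animals the dosage compensation complex, brought to X by SDC-2, lowers X-linked expression, and XO animals normally lack an active complex. In a whole-embryo sample, fewer cells of a type and less RNA per cell cannot be told apart.

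The later-dated set was not uniform. Over genes, its arrays A and B correlated at 0.997 and its arrays C, D and E at 0.997 to 0.998 with each other, while A or B against C, D or E gave 0.992 to 0.993 (17118 genes). Between 71 and 97 genes differed at least 2-fold between an array of A and B and an array of C, D and E, among the 8559 expressed genes, which are those above the median gene in mean level. The earlier-dated arrays correlated at 0.995 to 0.997 with each other, with at most 20 such genes. Later-dated against earlier-dated arrays gave 0.977 to 0.982 and 484 to 944 genes at least 2-fold apart, so each later-dated array was farther from each earlier-dated array than from any other array of its own set. The labels give no reason for the split. For called genes named below, the log2 difference without A and B or C, D and E is given where it moved over 1.5 times. On the first 2 principal components of the 14 egg-plate arrays (42.6% and 34.1% of the variance), all 5 later-dated XO arrays lay between 26.3 and 30.3 on component 1, against -11.6 to -7.04 for the earlier-dated XO arrays.

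**Figure D1:**
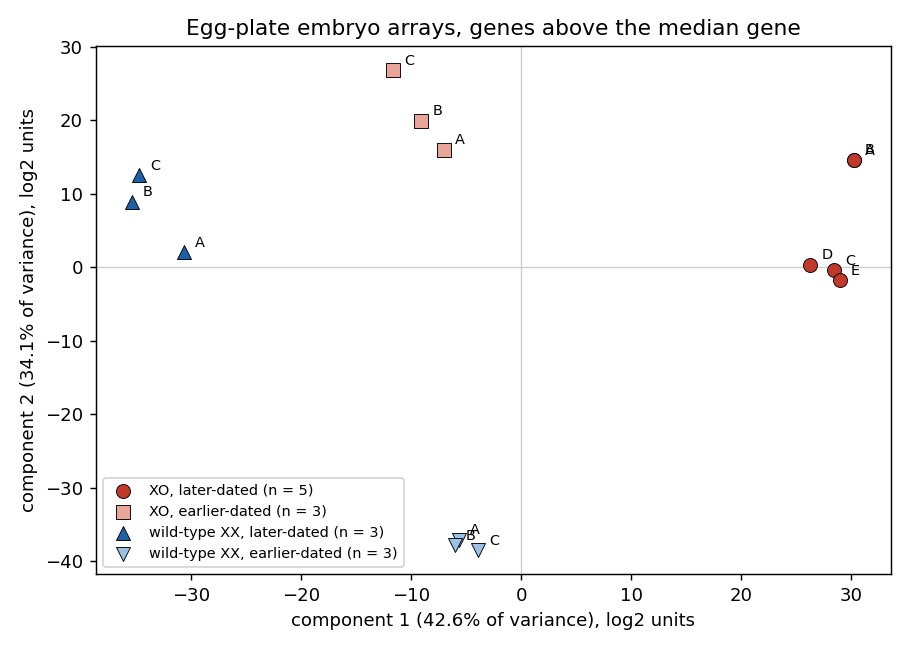
Positions of the 14 egg-plate arrays on the first 2 principal components of the expressed genes, in log2 units, with each array's letter. XO later-dated arrays sit at the right (26.3 to 30.3 on component 1), with A and B at 14.6 on component 2 and C, D and E between -1.81 and 0.297, and XO earlier-dated arrays sit apart from them (-11.6 to -7.04 on component 1).

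The genotype was visible in both sets. The transcript of sdc-2, which encodes the protein that targets dosage compensation to X, had RMA values (log2 levels) of 4.18, 4.32, 4.27, 4.23 and 4.19 in later-dated XO embryos and 4.400, 4.30 and 4.55 in earlier-dated XO embryos. Wild-type embryos gave 9.08 to 9.85 for it. The X-linked sex switch gene xol-1 stood at 3.92 to 4.06 in later-dated and 4.16 to 4.203 in earlier-dated XO embryos, against 5.50 to 7.49 in wild type. The date difference in XO embryos was -0.18 for sdc-2 (adjusted p = 0.334) and -0.19 for xol-1 (adjusted p = 0.493), and it was -0.04 for the male-determining signal gene her-1 (adjusted p = 0.732). Of the marker classes, 4 of 4 early embryo genes lay above the median gene, and 4 of 4 yolk or adult cuticle genes and 4 of 4 sperm genes lay below it.

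The innexin gene unc-9, which encodes a gap junction protein of muscle and neurons and is mutant in this strain, differed between the sets on 1 of its 2 probe sets. The brighter probe set read 8.80, 8.94, 9.12, 9.40 and 9.44 in later-dated and 7.32, 7.46 and 7.25 in earlier-dated XO embryos (log2 difference 1.80, SE 0.14, adjusted p = 1.9e-07). The groups did not overlap there. The dimmer probe set read 5.39 to 5.68 in later-dated and 5.32 to 5.63 in earlier-dated XO embryos, a difference of 0.06 (adjusted p = 0.725).

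Later-dated and earlier-dated XO embryos differed at 6940 of 17118 genes, or 40.5% of those tested, at a limma adjusted p under 0.05. Levels were higher in later-dated embryos for 3294 genes (19.2%) and lower for 3646 (21.3%). After each array was re-centred on its autosomal median, these numbers were 2774 and 4360. Most of these differences were small, with a median absolute log2 difference of 0.47 among called genes. Names of probe sets that can match several transcripts carry an _s_at or _x_at ending, and these are called multi-transcript probe sets below. A difference of at least 2-fold was called for 304 genes that rose (1.78%) and 225 that fell (1.31%). The 5 and the 3 arrays did not overlap at 7271 genes (42.5%). Among expressed genes alone, 2246 rose (26.2%) and 2629 fell (30.7%). Without arrays A and B 6847 genes were called, and without C, D and E 5644.

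The 10 largest rises admitted by the naming rule included snt-1 and unc-22. For rises and falls the rule admits only genes whose later-dated and earlier-dated arrays do not overlap. Separate sets are thus a condition for these genes and not a result. The synaptotagmin gene snt-1, whose product is the calcium sensor of synaptic vesicle release, read 9.04, 8.79, 9.29, 9.20 and 9.35 in later-dated embryos and 7.57, 7.15 and 6.73 in earlier-dated embryos. That is a 3.95-fold rise (log2 1.98, SE 0.17, adjusted p = 4.6e-07), and every later-dated array lay above every earlier-dated array. The twitchin gene unc-22, which encodes a giant kinase of the muscle thick filament, read 8.45, 8.42, 9.001, 9.20 and 9.29 in later-dated and 6.54, 7.05 and 6.93 in earlier-dated embryos (4.104-fold, log2 2.04, SE 0.20). Its lowest later-dated values came from arrays A and B, and they still stood above the highest earlier-dated value.

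The poly(A) polymerase family gene tent-5 read 11.04, 11.06, 11.58, 11.91 and 11.77 in later-dated and 9.15, 9.01 and 9.45 in earlier-dated embryos (4.82-fold, log2 2.27, SE 0.30). The gene dbd-13 had the largest rise of the 10, with 11.65, 11.48, 11.83, 11.55 and 11.82 against 9.73, 9.31 and 8.78 in earlier-dated embryos (5.27-fold, log2 2.40, SE 0.23). Neither gene's groups overlapped, as the rule requires. The astacin metalloprotease gene nas-7 rose 3.77-fold, with 9.52 to 9.78 in later-dated and 7.57 to 7.98 in earlier-dated embryos. The phospholipase gene ipla-7 rose 4.36-fold (9.21 to 9.78 against 7.10 to 7.67 in earlier-dated embryos), the transthyretin-related gene ttr-26 4.57-fold (7.20 to 7.89 against 5.01 to 5.49) and pana-1 4.11-fold (6.57 to 6.86 against 4.64 to 4.79). In each of these the sets were separate, as the rule requires.

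For the remaining pair of the 10 the later-dated arrays disagreed. The C-type lectin gene clec-150 read 8.74, 8.71, 7.29, 6.84 and 7.14 in later-dated and 5.41, 5.65 and 5.88 in earlier-dated embryos (log2 2.097, SE 0.36, adjusted p = 0.000251). The beta-tubulin gene tbb-6 read 10.28, 10.20, 6.69, 6.34 and 6.74 in later-dated and 5.90, 5.85 and 6.02 in earlier-dated embryos (log2 2.13, SE 0.76, adjusted p = 0.0345). Arrays A and B were high for both, and without both the differences were 1.44 for clec-150 and 0.67 for tbb-6, against 3.08 and 4.32 without C, D and E. The tbb-6 call was lost without later-dated array A or B, or without any 1 earlier-dated array.

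The 10 largest falls admitted by the naming rule, which leaves out multi-transcript probe sets and genes whose sets overlap, included xrn-2, fipp-1 and sftb-2. The exoribonuclease gene xrn-2, which degrades and terminates nuclear RNA, read 7.40, 6.68, 7.05, 7.09 and 6.85 in later-dated and 8.71, 9.06 and 8.75 in earlier-dated embryos (3.54-fold lower, log2 -1.82, SE 0.13, adjusted p = 1.0e-07). The gene fipp-1, a poly(A) polymerase-interacting factor, read 7.06, 7.09, 7.11, 7.19 and 6.97 in later-dated and 8.94, 8.86 and 8.62 in earlier-dated embryos (log2 -1.72, SE 0.12). A subunit gene of the SF3B splicing factor, sftb-2, read 8.69 to 8.97 in later-dated and 10.32 to 10.43 in earlier-dated embryos (log2 -1.50, SE 0.08). The sets were separate for all of them, as the rule requires.

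The largest of these falls was in mcd-1, a modifier of programmed cell death, with 6.65, 6.85, 7.01, 7.17 and 6.995 in later-dated and 8.87, 9.08 and 8.88 in earlier-dated embryos (4.03-fold lower, log2 -2.01, SE 0.10, adjusted p = 7.2e-09). The autophagy membrane protein gene atg-9 read 6.85, 6.36, 6.66, 6.04 and 6.19 in later-dated and 8.57, 8.41 and 8.16 in earlier-dated embryos (3.89-fold lower). The gene lido-9 read 8.87 to 9.35 in later-dated and 10.89 to 10.95 in earlier-dated embryos (3.60-fold lower), and lido-10 and lido-11 fell by 1.54 and 1.62 on the log2 scale. No array of one set reached the other set in these 5 genes, as the rule requires. The alpha-catulin gene ctn-1 fell 3.21-fold (9.28 to 9.62 against 10.95 to 11.26 in earlier-dated embryos).

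The last of the 10, gpdh-1, encodes a glycerol-3-phosphate dehydrogenase of the osmotic response. It read 9.40, 9.36, 9.74, 9.19 and 9.35 in later-dated and 11.26, 11.06 and 11.09 in earlier-dated embryos (3.31-fold lower, log2 -1.73, SE 0.12, adjusted p = 7.4e-08). Earlier-dated XO embryos had stood 3.53 log2 units above earlier-dated wild-type embryos for this gene, so the later-dated set lay between.

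**Figure D2:**
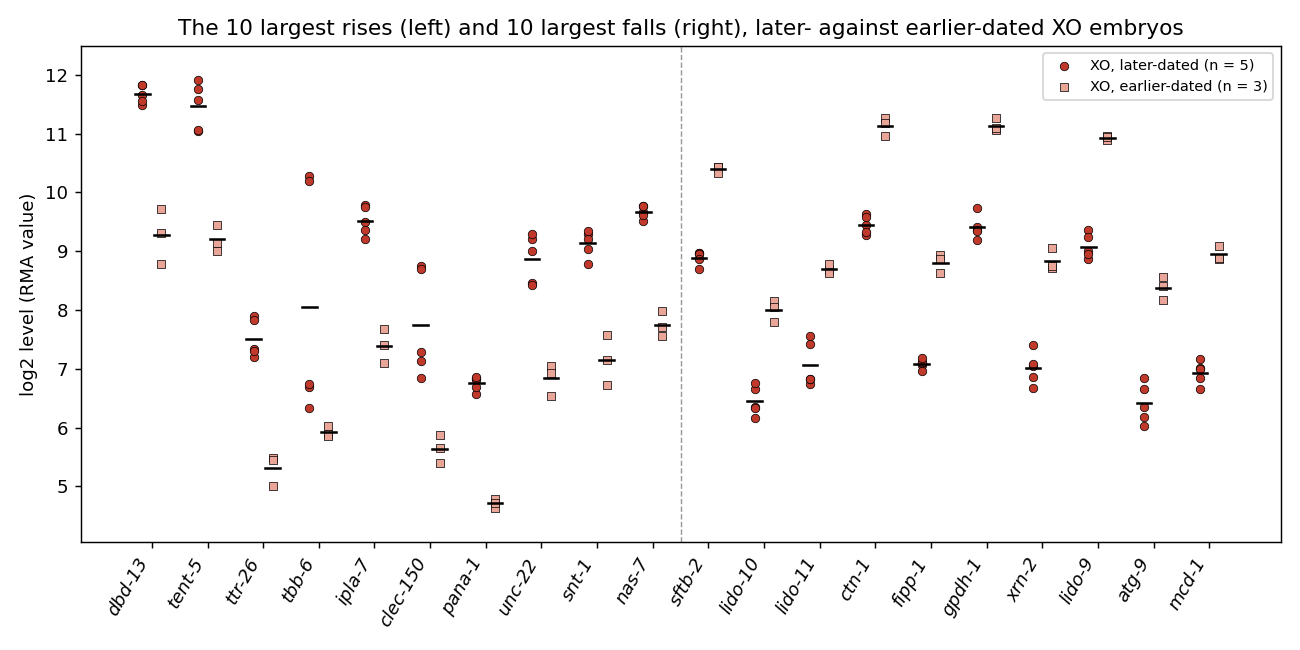
Log2 levels of the 20 largest changes admitted by the naming rule in each later-dated XO array (left point column of each gene, n = 5) and each earlier-dated XO array (right column, n = 3), with black bars at the means. The naming rule for rises and falls admits only genes whose sets are separate. For tbb-6 the later-dated arrays fall into 10.20 to 10.28 and 6.34 to 6.74.

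Pharynx genes had the highest median log2 difference of the 46 lists, 0.60, against -0.006 over all genes and -0.027 over expressed genes. Of 25 measured, 13 rose and 3 fell, where 19.2% and 21.3% of all genes did. The pharyngeal myosin heavy chain gene myo-1 read 9.59, 9.78, 9.55, 9.91 and 9.74 in later-dated and 8.22, 7.93 and 7.15 in earlier-dated embryos (3.86-fold, adjusted p = 2.7e-05). The cuticle-lining gene abu-8 read 8.25 to 9.16 in later-dated and 6.79 to 7.84 in earlier-dated embryos (log2 1.35). Both sets of values were apart. The regulator hlh-6, needed for pharyngeal glands, fell by 0.47 and the gland gene pqn-75 by 0.54. Without later-dated arrays C, D and E the list's median was 0.33, and without A and B it was 0.68.

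Among 32 intestine genes 16 rose and 8 fell, with a median of 0.44. The aspartyl protease gene asp-6 read 11.91, 11.97, 10.97, 11.28 and 11.34 in later-dated and 9.94, 9.39 and 8.81 in earlier-dated embryos (4.34-fold, adjusted p = 7.9e-06), and asp-5 rose 2.48-fold. All later-dated arrays were above all earlier-dated ones for asp-6. The falls included the cathepsin B-like protease gene cpr-6 (8.74 to 9.23 against 10.30 to 10.40 in earlier-dated embryos, log2 -1.33) and the gut transcription factor gene elt-7 (log2 -0.70). The proteases of this list thus moved both ways. Of the 17 genes read by other than multi-transcript probe sets, 11 were higher and 4 lower.

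Of 49 neuronal genes 24 rose and 5 fell (median 0.24). Besides snt-1, the vesicular glutamate transporter gene eat-4 read 6.22, 5.98, 7.01, 6.78 and 6.92 in later-dated and 5.46, 5.08 and 4.59 in earlier-dated embryos (log2 1.54, SE 0.22). The touch-neuron tubulin gene mec-12 fell by 1.25 and the syntaxin gene unc-64 by 0.57. Of the 49 neuronal genes 20 did not pass the test.

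Neuropeptide and insulin genes gave 48 of 108 higher and 11 lower (median 0.22). The FMRFamide-like peptide gene flp-8 read 8.30, 8.29, 8.19, 8.14 and 8.09 in later-dated and 6.63, 6.60 and 6.21 in earlier-dated embryos (3.29-fold, adjusted p = 7.4e-08). The peptide gene nlp-8 read 7.17 to 7.94 in later-dated and 5.75 to 6.03 in earlier-dated embryos (3.11-fold). The sets were separate for both. The peptide gene nlp-31, whose products are antimicrobial, fell by 1.57 and the insulin gene ins-34 by 0.54. The number lower was 5 to 7 without any 1 of later-dated A, B or D or of the earlier-dated arrays. X-linked members made up 30 of the 108, and 17 of them rose.

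Innexins gave 12 of 25 higher and 3 lower (median 0.19), but only 6 higher without later-dated C, D and E. The pharyngeal innexin gene inx-6 read 8.21, 8.29, 8.98, 8.79 and 8.91 in later-dated and 7.83 to 7.85 in earlier-dated embryos (log2 0.80), with A and B nearest to the earlier-dated set (0.42 without C, D and E). The genes inx-17 and inx-8 fell by 0.42 and 0.33.

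Body wall muscle genes were split, with 17 of 41 higher (41.5%) and 11 lower (26.8%) and a median of 0.12. Of expressed genes 26.2% were higher and 30.7% lower, so the share lower was near theirs. Rises besides unc-22 included the paramyosin gene unc-15, with 11.37, 11.45, 11.71, 11.67 and 11.68 in later-dated and 10.88, 10.69 and 10.33 in earlier-dated embryos (log2 0.94). Falls included the troponin C gene pat-10, with 11.27 to 11.64 in later-dated and 12.44 to 12.59 in earlier-dated embryos (log2 -1.02), and the muscle attachment gene unc-95 (log2 -1.15). The number lower was 7 without A and B, and 7 without earlier-dated A. Of the 16 read by other than multi-transcript probe sets, 12 were higher and 2 lower. The number higher was 11 without C, D and E.

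Epidermis and cuticle patterning genes gave 20 of 44 higher and 10 lower (median 0.26). The ground-like gene grl-21 read 8.90, 8.75, 9.21, 8.99 and 9.04 in later-dated and 7.86, 7.62 and 7.07 in earlier-dated embryos (2.76-fold). The molting receptor gene nhr-23 read 9.52 to 10.05 in later-dated and 8.503 to 8.83 in earlier-dated embryos (log2 1.13). The hedgehog-related gene wrt-10 and the spectraplakin gene vab-10 fell by 0.88 and 0.78, and vab-10 gave 0.43 without multi-transcript probe sets. The number lower was 6 without earlier-dated array A.

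Cuticle collagens had 47 of 146 lower (32.2%), 12 higher (8.22%) and a median of -0.14. Of all genes 21.3% were lower and 19.2% higher, and of expressed genes 30.7% and 26.2%. Of the 146 collagens, 67 lay above the median gene. The furrow collagen gene dpy-7 read 9.68, 9.59, 10.40, 10.30 and 10.31 in later-dated and 11.37, 11.24 and 11.27 in earlier-dated embryos (2.36-fold lower, adjusted p = 2.7e-05), and dpy-3 fell 2.14-fold. The rises were led by col-97, with 10.45 to 10.78 in later-dated and 8.66 to 9.17 in earlier-dated embryos (log2 1.66), and col-109 (log2 1.53). Of the 13 collagens with dpy or sqt symbols, grouped after their values were seen, 10 were lower, 0 higher and 3 not called, which were dpy-9 (-0.19), sqt-1 (-0.003) and sqt-2 (-0.37). The number lower was 29 without earlier-dated array A. Of the 85 read by other than multi-transcript probe sets, 21 were lower. The number higher was 6 without earlier-dated array B.

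In 3 other families of secreted or surface proteins more genes rose than fell. Of all genes 19.2% rose and 21.3% fell, and of expressed genes 26.2% and 30.7%. Hedgehog-related and Patched-related genes gave 22 of 82 higher (26.8%, near the share of expressed genes) and 8 lower (9.76%). The rises were led by grl-21 and the Patched-related gene ptr-6 (7.69 to 8.26 against 6.35 to 6.90 in earlier-dated embryos, log2 1.41). The hedgehog-related gene grd-3 fell by 0.89. The number lower was 5 without later-dated B or earlier-dated A. Transthyretin-related genes gave 16 of 40 higher and 8 lower. Of these ttr-21 read 8.12, 8.09, 6.45, 6.43 and 6.52 in later-dated and 5.83, 5.86 and 5.39 in earlier-dated embryos (log2 1.43). Its A and B values were again highest (0.77 without them, 2.41 without C, D and E), whereas ttr-35 and ttr-2 fell by 0.82 and 0.73. Proteases gave 17 of 59 higher (28.8%, near the share of expressed genes) and 7 lower (11.9%). Of them the cathepsin Z-like gene cpz-1 fell most, with 9.56 to 9.85 in later-dated and 11.50 to 11.70 in earlier-dated embryos (3.77-fold lower, adjusted p = 3.1e-09).

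**Figure D3:**
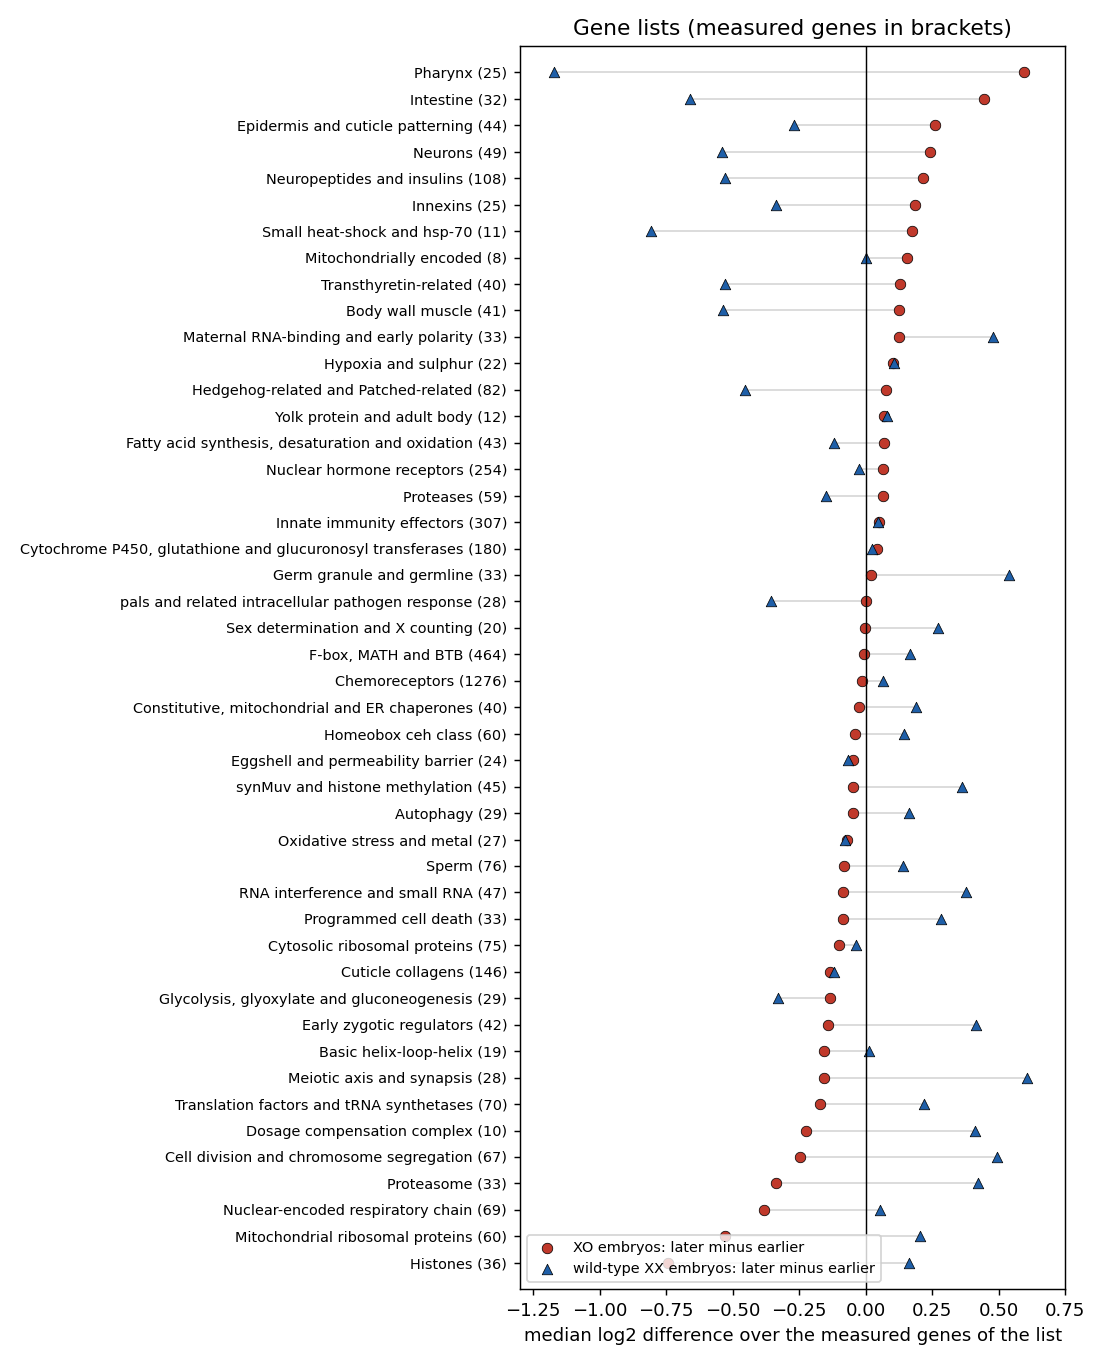
Median log2 difference, later minus earlier title date, over the measured genes of each of the 46 lists, for XO embryos (red circles) and wild-type XX embryos from egg plates (blue triangles). Pharynx stands highest in XO embryos (0.60) and histones lowest (-0.74), and 35 lists have medians of opposite sign in the 2 genotypes.

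Histone genes had the lowest median, -0.74, with 30 of 36 lower and 0 higher. Histone genes have near-identical copies, so single members are uncertain, and 22 of the 36 were read by multi-transcript probe sets. Of those 22, 20 were lower, and of the other 14, 10 were lower. The gene his-32 read 11.01, 11.16, 11.03, 10.74 and 10.80 in later-dated and 12.72, 12.71 and 12.68 in earlier-dated embryos (3.37-fold lower, adjusted p = 1.5e-08), and his-3 read 9.84 to 10.18 in later-dated and 11.60 to 11.77 in earlier-dated embryos (3.26-fold lower). Both were separate between the sets. Earlier-dated XO embryos had a median 0.77 above earlier-dated wild type over these genes.

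Genes of the mitochondrion's own ribosome, all encoded in the nucleus, fell in 49 of 60 cases with 0 rises and a median of -0.53. The large-subunit genes mrpl-47 and mrpl-40 read 8.98 to 9.24 and 9.27 to 9.52 in later-dated embryos, and 10.24 to 10.34 and 10.503 to 10.55 in earlier-dated embryos. The folds were 2.29 and 2.23 lower. In the nuclear-encoded respiratory chain 44 of 69 genes fell and 1, the succinate dehydrogenase subunit gene sdha-1, rose (log2 0.41), with a median of -0.38. The copper chaperone gene cox-17 read 7.67, 7.73, 7.72, 7.61 and 7.32 in later-dated and 8.65, 8.76 and 9.08 in earlier-dated embryos (2.33-fold lower), and the cytochrome oxidase subunit gene cox-6C fell 2.09-fold. Averaging its probe sets ended the sdha-1 call, and 23 of the 35 genes read by other than multi-transcript probe sets were lower.

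Of 8 transcripts of the mitochondrial genome, 4 rose and 0 fell (median 0.16), but 2 rose after re-centring, without A and B, or without earlier-dated B or C. The cytochrome oxidase gene COX1 read 13.48, 13.37, 13.18, 13.24 and 13.31 in later-dated and 12.75, 12.89 and 13.01 in earlier-dated embryos (log2 0.43, adjusted p = 0.000841), and the cytochrome b gene CYTB rose by 0.37. The difference between COX1 and the nuclear subunits was not tested.

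Proteasome genes fell in 22 of 33 cases and rose in 1 (median -0.34), and 14 were lower without later-dated C, D and E. Of the 12 read by other than multi-transcript probe sets, 8 were lower. The core subunit gene pbs-4 read 9.66 to 10.01 in later-dated and 10.85 to 10.97 in earlier-dated embryos (log2 -1.13), and the lid subunit gene rpn-11 fell by 0.95. The single rise, of the ATPase subunit gene rpt-1 (log2 0.31, adjusted p = 0.0351), was lost without any 1 of later-dated A, B, D or E or earlier-dated A or B, and gave -0.02 without multi-transcript probe sets.

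Translation factor and tRNA synthetase genes gave 32 of 70 lower and 9 higher (median -0.17). The cysteinyl-tRNA synthetase gene cars-1 read 8.04, 7.83, 7.83, 7.86 and 7.80 in later-dated and 9.24, 9.27 and 9.16 in earlier-dated embryos (2.55-fold lower), and the initiation factor gene eif-3.J fell 2.53-fold (8.90 to 9.07 against 10.29 to 10.40 in earlier-dated embryos). Initiation factor eif-1.A rose by 0.61, a call that averaging its probe sets ended. Of the 29 genes read by other than multi-transcript probe sets, 15 were lower. Cytosolic ribosomal protein genes had 24 of 75 lower, near the 30.7% of expressed genes, 4 higher and a median of -0.10. Under quantile normalisation these counts were 15 and 10. The small-subunit genes rps-29 and rps-10 fell by 0.79 and 0.75, and rpl-14 rose by 0.36.

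Cell division genes gave 36 of 67 lower and 15 higher (median -0.25). The kinetochore gene knl-3 read 8.63, 8.61, 8.78, 8.60 and 8.52 in later-dated and 10.21, 10.17 and 10.12 in earlier-dated embryos (2.91-fold lower, adjusted p = 1.2e-08). The topoisomerase gene top-2, which untangles sister chromosomes, fell by 1.03 (10.10 to 10.34 against 11.13 to 11.46 in earlier-dated embryos). Of the 6 replicative helicase genes, grouped after their values were seen, 5 fell, from mcm-4 (-0.98) to mcm-5 (-0.29), and mcm-7 gave 0.19 (adjusted p = 0.0729). The cyclin-dependent kinase gene cdk-4 and the centriole kinase gene zyg-1 rose by 0.69 and 0.66. The number higher was 9 without A and B and 9 without earlier-dated array B, and 13 of the 26 genes read by other than multi-transcript probe sets were lower.

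Meiotic axis and synapsis genes gave 10 of 28 lower (35.7%, next to 30.7% of expressed genes) and 0 higher. The synaptonemal complex gene syp-3 read 7.32 to 7.99 in later-dated and 8.48 to 8.63 in earlier-dated embryos (log2 -0.80), and the germline chromatin gene him-17 gave -0.79. Without earlier-dated array A 6 were lower. Germ granule and germline genes gave 11 of 33 lower (33.3%), near the 30.7% of expressed genes, and 5 higher. The P granule gene pgl-1 read 7.04, 7.12, 6.99, 7.03 and 6.97 in later-dated and 8.12, 8.22 and 8.45 in earlier-dated embryos (2.35-fold lower). The cap-binding protein gene ife-1 fell by 1.01, while the P granule helicase gene cgh-1 and the granule gene meg-1 rose by 0.65 and 0.74. Averaging its probe sets ended the meg-1 call. Without C, D and E the number lower was 7, and the number higher was 3 without A and B or without earlier-dated A or B.

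Maternal RNA-binding and polarity genes rose in 12 of 33 cases and fell in 3 (median 0.12, but -0.04 with the mean of probe sets). The translational repressor gene puf-5 read 10.51, 10.69, 10.06, 10.66 and 10.41 in later-dated and 9.45, 9.41 and 9.79 in earlier-dated embryos (log2 0.92), and the maternal fate regulator skn-1 rose by 0.72. The polarity gene par-2 fell by 0.93 and the meiotic spindle gene mei-1 by 0.46, and 6 fell without A and B. The eggshell list gave 4 of 24 higher and 6 lower, with the proteoglycan gene cpg-2 up by 1.19 (0.74 without C, D and E) and the acetyl-CoA carboxylase gene pod-2 down by 1.23.

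Early zygotic regulators fell in 16 of 42 cases and rose in 8 (median -0.14), and the number lower was 8 without earlier-dated array C. The mesoderm homeobox gene ceh-51 read 5.59, 5.39, 5.36, 5.50 and 5.47 in later-dated and 6.41, 6.68 and 6.72 in earlier-dated embryos (2.204-fold lower), and the muscle regulator hlh-1 read 7.06 to 7.32 in later-dated and 7.86 to 8.08 in earlier-dated embryos (log2 -0.75). The sets were separate for both. The pharyngeal muscle homeobox gene ceh-22 rose by 1.00, with 9.55 to 10.04 in later-dated and 8.82 to 8.87 in earlier-dated embryos, as did nhr-23.

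The smaller set of stage and cell type markers did not follow the tissue lists throughout. Of 9 markers of late embryonic tissues, 2 were higher (the vesicle GTPase gene rab-3, log2 1.32, and the pharyngeal myosin gene myo-2) and 6 lower, among them dpy-7, the muscle myosin gene myo-3 (log2 -0.70) and the gut regulator elt-2 (log2 -0.37). Of 6 zygotic markers 1 was higher and 5 lower, of 4 early markers 2 were higher and 0 lower, and of 4 oocyte and germline markers 0 were higher and 3 lower. The summed linear level of the late tissue markers, on the log2 scale, was 13.96 to 14.3 in later-dated and 14.5 to 14.6 in earlier-dated embryos, and most of that sum came from 1 gene, sqt-3 (mean level 13.68 in later-dated and 14.19 in earlier-dated embryos). Whether the sets differed in the ages of their embryos was not tested. Among the sperm genes 24 of 76 were lower (31.6%) and 4 higher (5.26%), next to 21.3% and 19.2% of all genes. Of the 31 read by other than multi-transcript probe sets, 4 were lower. The number higher was 1 or 2 without earlier-dated A or B, and 6 of the 76 lay above the median gene.

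Of 11 small heat-shock and hsp-70 genes 3 rose and 3 fell (27.3% each, near the 26.2% and 30.7% of expressed genes). The gene hsp-70 read 8.56, 8.65, 8.60, 8.98 and 8.87 in later-dated and 6.77, 6.55 and 7.72 in earlier-dated embryos (3.29-fold, adjusted p = 0.000641). The small heat-shock gene hsp-16.2 read 9.73 to 10.98 in later-dated arrays A, B, C and E with D highest, and 8.92, 9.17 and 10.20 in earlier-dated embryos (log2 1.01, adjusted p = 0.0304, and 0.37 without C, D and E), so the sets overlapped, and the call was lost without any 1 of 5 arrays (later-dated C, D or E, earlier-dated A or B). The germline small heat-shock gene sip-1 fell by 0.55 and hsp-12.2 by 0.50 (-0.29 without A and B, -0.80 without C, D and E).

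Constitutive and organelle chaperones gave 16 of 40 lower and 11 higher. The kinase co-chaperone gene cdc-37 fell by 1.00 (7.15 to 7.71 against 8.15 to 8.47 in earlier-dated embryos), and the protein disulphide isomerase gene pdi-2 fell by 1.25, with a value of 0.12 on a single-transcript probe set. The unfolded protein response gene atf-6 and the co-chaperone gene dnj-1 rose by 0.80 and 0.70, and the atf-6 call was lost without multi-transcript probe sets.

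Of 307 innate immunity genes 63 were higher (20.5%), near the 19.2% of all genes, and 34 lower (11.1%), next to 21.3% of all genes. With the later-dated arrays counted as 2 samples 20 were lower. The C-type lectin gene clec-5 read 8.35, 8.49, 8.41, 8.23 and 8.34 in later-dated and 6.06, 6.40 and 6.14 in earlier-dated embryos (4.49-fold, adjusted p = 3.1e-09), and clec-196 fell by 0.95. Only 52 of these genes lay above the median gene. Among pals and related genes of the intracellular pathogen response 6 of 28 rose (21.4%, near the 19.2% of all genes) and 2 fell. The gene pals-23 gave 0.77 (0.50 without C, D and E) and the repressor gene pals-22 gave -0.45. Without later-dated E, earlier-dated B or earlier-dated C 3, 3 and 2 of them rose.

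Detoxification genes gave 27 of 180 higher (15.0%) and 19 lower (10.6%), next to 19.2% and 21.3% of all genes. The glucuronosyltransferase gene ugt-17 rose 3.76-fold (7.08 to 7.42 against 4.97 to 5.66 in earlier-dated embryos), and the glutathione transferase genes gst-20 and gst-7 fell by 1.58 and 0.97. The number lower was 12 without later-dated D and 11 without earlier-dated C. Of 27 oxidative stress and metal genes 4 rose and 8 fell (29.6%, near the 30.7% of expressed genes). The cadmium-responsive gene cdr-4 read 7.95, 8.08, 6.98, 6.65 and 6.70 in later-dated and 6.04 to 6.17 in earlier-dated embryos (log2 1.17). The superoxide dismutase gene sod-4 rose by 0.96. Arrays A and B were highest in both genes (0.67 for each without them), and cdr-4 gave 1.91 without C, D and E. The catalase gene ctl-2 and the ferritin gene ftn-2 fell by 1.13 and 0.67.

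Among metabolic lists, hypoxia and sulphur genes gave 4 of 22 higher and 7 lower (31.8%, near the share of expressed genes). The cystathionine beta-synthase gene cbs-2 fell by 0.98 (7.11 to 7.61 against 8.26 to 8.45 in earlier-dated embryos). Earlier-dated XO embryos had stood 3.49 above earlier-dated wild type for it, beside 3.53 for gpdh-1. The cysteine synthase family gene cysl-3 fell by 1.08, and the methionine adenosyltransferase gene sams-1 and the hypoxia-responsive gene nhr-57 rose by 0.84 and 0.65 (0.38 for nhr-57 without C, D and E). Glycolysis and gluconeogenesis genes gave 12 of 29 lower (41.4%) and 8 higher (27.6%), next to 30.7% and 26.2% of expressed genes. The hexokinase gene hxk-2 gave -1.07 and the triosephosphate isomerase gene tpi-1 -0.58. The alcohol dehydrogenase gene adh-1 gave 1.03 and the trehalose synthase gene tps-1 0.78. In this list 5 rose without earlier-dated C. Fatty acid genes gave 9 of 43 higher (20.9%) and 8 lower (18.6%), next to 26.2% and 30.7% of expressed genes. Of all genes 19.2% were higher and 21.3% lower, and 36 of the 43 lay above the median gene. Without C, D and E 15 rose. The elongase gene elo-5 (0.89) and the acyl-CoA synthetase gene acs-1 (0.85) were up. The gene pod-2 and the enoyl-CoA hydratase gene ech-6 (-0.80) were down.

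Of 29 autophagy genes 10 rose (34.5%) and 8 fell (27.6%), next to 26.2% and 30.7% of expressed genes. Besides atg-9 the ubiquitin-like gene lgg-3 fell by 1.08 (9.87 to 10.07 against 11.004 to 11.17 in earlier-dated embryos). The membrane protein gene epg-4 rose by 0.54 and the Beclin gene bec-1 by 0.72, the last with -0.20 on a single-transcript probe set. Cell death genes gave 11 of 33 lower (33.3%), near the 30.7% of expressed genes that fell, and 4 higher. The nuclease gene crn-1 fell by 0.95, and the corpse engulfment genes ced-7 and ced-12 rose by 0.50 and 0.39.

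The synMuv and histone methylation list gave 17 of 45 lower (37.8%) and 8 higher (17.8%), next to 30.7% and 26.2% of expressed genes. The repressors lin-15B and lin-56 fell by 1.01 and 0.95. The X-linked histone demethylase genes jmjd-3.3 and utx-1 rose by 0.83 and 0.60. RNA interference genes gave 10 of 47 lower (21.3%) and 4 higher, with eri-3 at -0.94 and the Dicer gene dcr-1 at -0.65, against mut-15 at 0.44 and the Argonaute gene sago-1 at 0.42, and 7 rose without C, D and E. The sago-1 call was lost with the mean of its probe sets.

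Nuclear hormone receptors gave 58 of 254 higher (22.8%) and 26 lower (10.2%), next to 19.2% and 21.3% of all genes. They were led by nhr-107 (1.27) and nhr-23 upward and by nhr-78 (-0.78) and nhr-122 (-0.70) downward. The nhr-107 call was lost without multi-transcript probe sets. In this list 15 to 17 were lower without A and B or without earlier-dated A or B. Homeobox genes of the ceh class gave 12 of 60 higher and 15 lower, shares near those of all genes, with ceh-18 at 1.32 and ceh-48 at 1.14 against ceh-51 and ceh-91 (-1.05). The ceh-18 call was also lost without multi-transcript probe sets. Basic helix-loop-helix genes gave 3 of 19 higher and 8 lower, led by hlh-11 (1.09) and, downward, by hlh-15 (-1.13) and the mesodermal gene hlh-8 (-0.77), with 5 lower without earlier-dated C. Chemoreceptor genes, of which 11 of 1276 lay above the median gene, gave 68 higher (5.33%) and 102 lower (7.99%), and 34 and 178 after re-centring. Without earlier-dated A or B 41 and 37 were higher, and without earlier-dated C 43 were lower. The chemoreceptor gene srr-6 rose by 0.99 (0.65 without C, D and E) and srw-85 fell by 1.18. F-box, MATH and BTB genes gave 54 of 464 higher and 76 lower (36 lower without C, D and E, 48 lower without earlier-dated C, and 34 higher without earlier-dated B), with the Skp1-related genes skr-7 and skr-15 down by 1.33 and 1.28 and math-35 up by 1.07.

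Genes of the dosage compensation complex gave 5 of 10 lower and 2 higher (median -0.23). The zinc finger gene sdc-1 read 7.76, 7.92, 7.86, 8.01 and 7.81 in later-dated and 8.64, 8.64 and 8.44 in earlier-dated embryos (log2 -0.70, adjusted p = 2.8e-05), and the subunit gene dpy-26 read 9.13 to 9.39 in later-dated and 9.68 to 10.11 in earlier-dated embryos (log2 -0.63). The sets were separate for both. The condensin subunit genes dpy-28 and capg-1 rose by 0.43 and 0.29, and the capg-1 call was lost without A and B or without earlier-dated B or C. The number lower was 3 without earlier-dated A or without C, D and E. Of 20 sex determination and X counting genes 6 rose and 3 fell. The X signal gene ceh-39 rose by 0.57 (10.35 to 10.56 against 9.81 to 9.98 in earlier-dated embryos) but gave -0.05 with the mean of its probe sets, and the germline sex gene fog-1 fell by 0.46. The autosomal signal gene sea-2 rose by 0.53 and the receptor gene tra-2 fell by 0.29, and both calls were lost without C, D and E. In this list 3 rose without C, D and E, and 1 fell without earlier-dated B.

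On X, 634 of 2352 genes rose (26.96%) and 336 fell (14.3%), while of 14721 autosomal genes 2649 rose (17.99%) and 3303 fell (22.4%). Among expressed genes the median log2 difference was 0.16 on X, and on the autosomes it ran between -0.10 on III and 0.002 on IV. The level of expressed X-linked genes relative to autosomal genes, taken in each array against the mean of the 8 XO arrays, was -0.07, -0.06, 0.16, 0.18 and 0.21 in later-dated embryos and -0.08, -0.12 and -0.17 in earlier-dated embryos. Every later-dated array lay above every earlier-dated array, but A and B were close to the earlier-dated set.

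The difference of the means was 0.21 (SE 0.07, 1.15-fold), and the exact permutation p, two-sided, was 0.0357, where 0.0179 is the smallest that 56 splits can give. The call did not hold when any 1 of the 8 arrays was left out, with differences of 0.1755 to 0.2451 and exact permutation p = 0.0571 to 0.1905, where such splits can reach 0.0286 or 0.0476. It was also lost over all genes, dim ones included (0.08, exact permutation p = 0.0714), and with the mean of probe sets (0.17, exact permutation p = 0.0893). The difference was 0.30 without A and B, 0.06 without C, D and E and 0.13 with a replicate block, and the smallest p these 3 settings allow (0.05, 0.1 and 0.25) cannot pass the threshold. Measured against earlier-dated wild-type XX embryos, the X-linked level was -0.45 ± 0.15 (SD, n = 5) in later-dated XO and -0.68 ± 0.04 (SD, n = 3) in earlier-dated XO embryos.

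**Figure D4:**
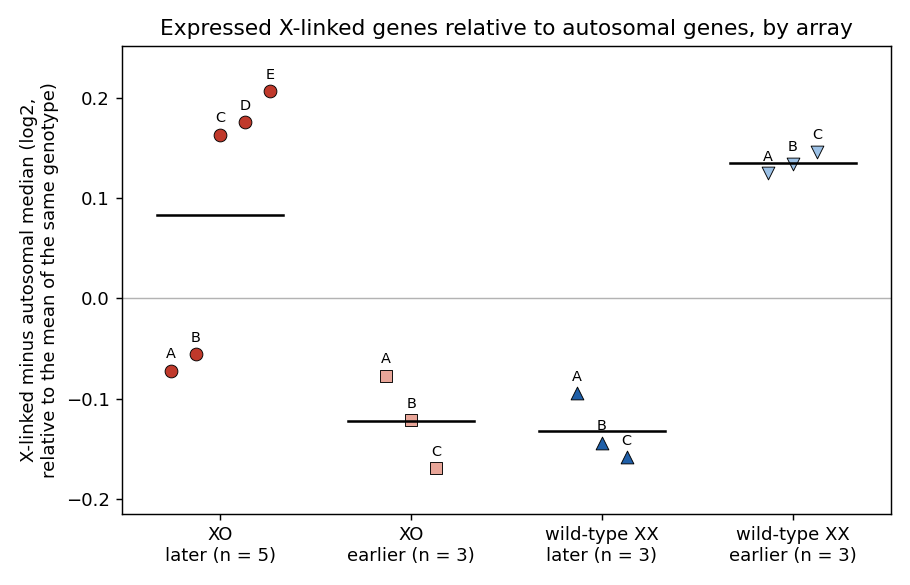
Median of expressed X-linked genes minus median of expressed autosomal genes in each array, in log2 units relative to the mean of the arrays of the same genotype, with bars at group means. In XO embryos, later-dated arrays C, D and E lie between 0.16 and 0.21, A and B at -0.07 and -0.06, and earlier-dated arrays between -0.17 and -0.08.

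Wild-type XX embryos from egg plates also differed between their title dates. Later-dated wild-type embryos were higher at 3624 genes (21.2%) and lower at 3237 (18.9%), and 8030 and 2288 after each array was re-centred on its autosomal median, which moved all wild-type differences by 0.17. Of the genes called in XO embryos 51.9% were called in wild type, and of those called in wild type 52.5% were called in XO. Among the 3601 genes called in both, 2865 (79.6%) had opposite signs and 736 the same sign, or 3696 of 4562 opposite after re-centring. Over genes the 2 date differences, which share no array, had Pearson's r of -0.44 and Spearman's rho of -0.33 (17118 genes).

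The 2 date differences differed from each other at 7986 genes (46.7%), with 3610 higher in the XO difference and 4376 lower. The re-centred counts were 2673 and 7836. The medians of 35 of 46 lists had opposite signs in the 2 genotypes (36 after re-centring). Pharynx genes had a median of 0.60 in XO and -1.17 in wild-type embryos, neurons 0.24 and -0.54, histones -0.74 and 0.16, and meiotic genes -0.16 and 0.60. Of single genes, dbd-13 differed by 2.40 in XO and -3.81 in wild-type embryos and snt-1 by 1.98 and -2.02. Among the 11 lists with medians of the same sign were the maternal genes, with 0.12 in XO and 0.48 in wild-type embryos. The X-linked level differed by 0.21 in XO and -0.27 in wild-type embryos. The difference between those was 0.47 (SE 0.07, two-sided exact permutation p = 0.0018 over 1120 splits). These splits combine the 56 of the XO arrays with the 20 of the wild-type arrays, so dates were exchanged only within a genotype. That p therefore refers to no date difference in either genotype. Whether the 2 X-linked differences are equal was not tested by it.

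Variation within the later-dated set was described with single genes. The 6 genes with the largest SD among the 5 arrays, by the naming rule, were tbb-6 and 5 others. The stearoyl-CoA desaturase gene fat-7 read 8.90, 9.09, 6.11, 5.50 and 5.79 in later-dated and 6.00, 5.74 and 5.39 in earlier-dated embryos. The infection response gene irg-2 read 8.18, 8.21, 5.42, 4.85 and 5.46 in later-dated and 6.31, 6.32 and 6.48 in earlier-dated embryos. Arrays A and B were high for both genes, and for irg-2 the earlier-dated arrays lay in between.

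The glucuronosyltransferase gene ugt-31 read 10.47, 10.52, 8.10, 7.53 and 7.62 in later-dated and 7.20 to 7.38 in earlier-dated embryos. For ugt-26 the values were 11.45, 11.59, 9.09, 8.86 and 8.99 in later-dated and 8.53 to 8.90 in earlier-dated embryos, and for the carboxylesterase family gene cest-34 8.16, 8.64, 5.95, 6.03 and 6.10 in later-dated and 6.20 to 6.28 in earlier-dated embryos. All 6 genes thus had the same 2 arrays high. Of the 6, the date difference was called for tbb-6 and ugt-31 (adjusted p = 0.0427) and not for fat-7 (0.116), irg-2 (0.956), ugt-26 (0.0573) or cest-34 (0.268). The ugt-31 call was lost without later-dated A or B or any 1 earlier-dated array. Without A and B, ugt-31 gave 0.44 and irg-2 gave -1.13 (adjusted p = 4.0e-05). For ugt-31 the log2 difference was 1.54 with all arrays and 3.18 without C, D and E.

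**Figure D5:**
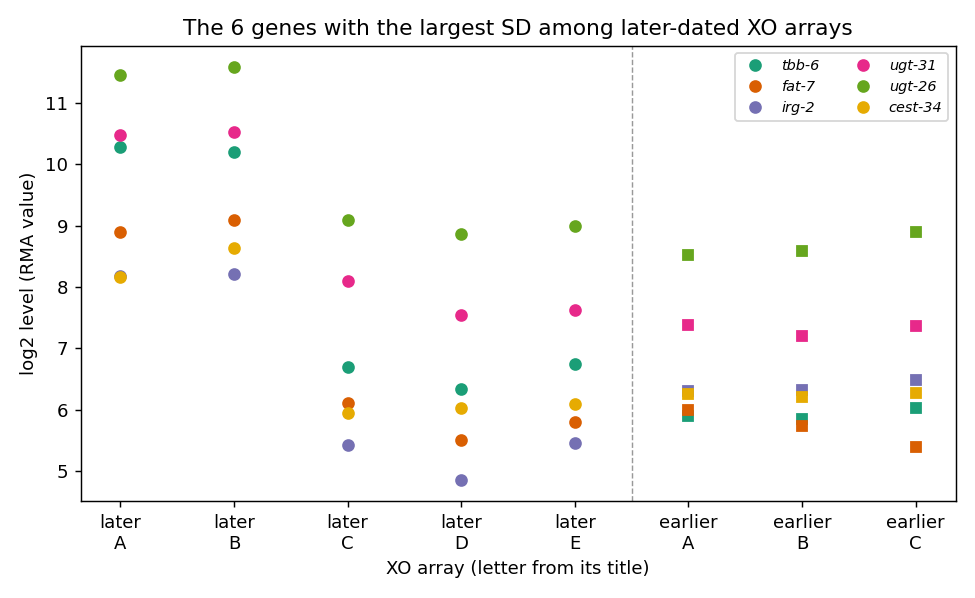
Log2 levels of the 6 genes with the largest SD among later-dated XO arrays, in each later-dated array (left, circles) and each earlier-dated array (right, squares). Later-dated A and B lie at 8.16 to 11.59, and C, D and E at 4.85 to 9.09.

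Within the earlier-dated set, the 6 genes of largest SD by the naming rule, which leaves out multi-transcript probe sets such as those of hsp-70 (SD 0.618), asp-6 (0.564) and myo-1 (0.554), were hsp-16.2, hsp-16.41, idpc-1, haps-1, alg-5 and the nuclear anchorage gene anc-1. The last read 11.38, 10.90 and 9.88 in earlier-dated arrays against 10.33 to 10.73 in the later-dated arrays, and the Argonaute gene alg-5 read 8.11, 8.76 and 9.21 against 8.83 to 9.45. Array C of the earlier-dated set lay at one end for all 6 genes, and array A at the other. Over all expressed genes the median SD was 0.13 in the later-dated set (n = 5) and 0.12 in the earlier-dated set (n = 3).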

How the data were processed

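Embryo RNA was hybridised to Affymetrix arrays. The deposited values are log2 levels per probe set made by RMA, per the submitters' processing notes, and no version is given in the sources used here. Total RNA was extracted with Trizol and labelled as biotin cRNA, per the labels' protocols. Probe sets with 1 annotated gene (20766 of 22548) were used, and for genes with several the probe set brightest over the 14 egg-plate arrays was kept, giving 17118 genes. Each gene's symbol and chromosome were looked up by gene ID in NCBI's table. A limma model (3.58.1, R 4.3.3) with 4 group means was fitted over the 14 arrays (10 residual degrees of freedom), with Benjamini-Hochberg adjustment over all genes. Every adjusted p is from it. The code was tested on simulated data. The X-linked shift used a two-sided exact permutation test.

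Members and lists were chosen with earlier results of these data known, and the name patterns of the innate immunity and chemoreceptor lists were corrected after values were seen because they had caught genes of other families, such as fipp-1. Named genes are the 4 genotype genes, the 10 largest rises and 10 largest falls among called genes with a symbol, a single-transcript probe set, no overlap and a higher group mean above the median gene, up to 2 rises and 2 falls per list, and the 6 genes of largest SD in each set. Alternatives were re-centring, quantile normalisation, probe set choice, an expression filter, an intensity trend, array weights, a fit on 1 genotype alone, a replicate block and left-out arrays. Settings without A and B or without C, D and E, and the later-dated arrays counted as 2 samples, were chosen after seeing the data.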

Additional observations from a re-analysis of the deposited data

Results flagged for a closer look

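Of 190 sets of later-dated XO values tested for a single distant array, 4 were past the threshold, where chance gives about 1 in 20. The cysteinyl-tRNA synthetase gene cars-1 had a log2 level of 8.035 in array A, with the other later-dated arrays at 7.80 to 7.86. The C-type lectin gene clec-196 had 10.72 in array D, with the others at 11.03 to 11.12. The collagen gene col-109 had 10.36 in array C, with the others at 10.08 to 10.16, and the triosephosphate isomerase gene tpi-1 had 10.12 in array E, with the others at 10.30 to 10.33. No array was the distant one for more than 1 of these genes.

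The date difference in XO embryos differed from that in wild-type embryos at 7986 genes (limma, adjusted over all genes), and for the X-linked level the difference between the date differences was 0.473.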

How the results depend on the processing

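Calls between the XO sets numbered 5629 to 6872 when 1 array was left out, between wild-type sets 5718 to 6601, and for the difference of differences 7312 to 8081. With array weights 9384 genes were called between the XO sets, and with the later-dated arrays counted as 2 samples 5059, of which 5026 had been called with the same sign. Re-centring on autosomal medians gave 10318 wild-type calls. The X-linked shift kept its sign in every setting run but lost its call over all genes (0.0753), when probe sets were averaged (0.168) and without any 1 array (0.1755 to 0.2451, exact permutation p = 0.0571 to 0.1905). It was 0.304 without A and B, 0.0589 without C, D and E and 0.1345 with a replicate block, settings whose smallest exact permutation p of 0.05, 0.1 and 0.25 cannot pass the threshold. Without multi-transcript probe sets the sign turned for bec-1 (-0.20), eef-1A.2 (-0.14), egl-18 (-0.75), hlh-30 (-0.46), pdi-2 (0.12), rpt-1 (-0.0186) and vab-10 (0.43). With the mean of probe sets it turned for ceh-39 (-0.0456), egl-18 (-0.11) and hlh-30 (-0.16). Without A and B it turned for irg-2 (-1.13), cest-34 (-0.22) and idpc-1 (0.11), which were not called with all arrays. The sign of anc-1, haps-1, her-1, idpc-1 and irg-2, none of them called, also turned when some single array was left out. The causes were not tested. Of 177 named genes called, 149 kept the call in each setting and 28 lost it in at least 1. Same-lettered arrays of the 2 XO sets had deviations correlated at -0.22, -0.08 and -0.19, and different-lettered ones at -0.27 to 0.26. In wild type same-lettered arrays gave 0.09, 0.17 and 0.09, and different-lettered ones -0.17 to 0.07. These few values cannot decide whether the letters pair arrays. With the letter as a replicate block 5494 XO, 6270 wild-type and 7004 difference calls were made. The number of arrays limits the precision, and levels near background have little room to fall.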

Other observations

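Some groups of genes are not described above. Yolk protein and adult body genes gave 1 of 12 higher (8.33%) and 4 lower (33.3%) in later-dated against earlier-dated XO embryos. Of all genes 19.2% were higher and 21.3% lower. The median log2 difference of the list was 0.07. Without earlier-dated array C 0 were lower. The 1 higher was egl-18 (log2 0.52), which gave -0.75 without multi-transcript probe sets and -0.11 with the mean of probe sets. In those 2 settings 0 of the list were higher. Among expressed autosomal genes, the share higher in later-dated XO embryos ran between 21.1% on chromosome I and 29.1% on IV, and the share lower between 28.04% on V and 36.6% on III.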
